A study of Mus musculus with 12 samples.

Results

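The genes of the MHC class II pathway were followed through mouse skin and keratinocyte culture. The 6 members were H2-Aa, H2-Ab1, H2-Eb1, H2-DMa, Cd74 and Ciita, and every probe set that the platform annotation assigns to 1 of these symbols was taken. This gave 10 probe sets of the 22626 that are not controls, and 6 genes of the 12393 with a single symbol. Expression was measured on 12 Affymetrix arrays of total RNA, 1 per sample. There were 5 cultures of keratinocytes, the epithelial cells of the epidermis, taken from newborn mice, and whole skin from 30-day-old (5 samples) and newborn mice (2 samples). Replicates 1 and 2 of the cultures had a mixed C57, DBA and FVB background, as did every 30-day skin sample, whereas replicates 3, 4 and 5 of the cultures and both newborn skin samples were FVB. Each culture was a pool of cells from 5 mice that shared a genotype, which the labels do not name. It grew in medium with little calcium for up to 3 days and was never passaged. Within skin, age and strain coincide, so a difference between 30-day and newborn skin cannot be told apart from a difference between mixed-strain and FVB skin. Whether each skin sample was a different animal is not stated, so the p-values here rest on the spread of the samples as given, which may be partly or wholly technical. In whole tissue, more cells of a type and more RNA per cell cannot be told apart.

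MHC class II molecules display peptides from endosomes to helper T cells. They are pairs of an alpha and a beta chain, the A molecule of H2-Aa and H2-Ab1 and the E molecule of H2-Ea and H2-Eb1. The invariant chain, encoded by Cd74, fills the groove of new molecules and escorts them to endosomes, where proteases degrade it and the DM molecule, of which H2-DMa encodes the alpha chain, exchanges the last fragment for peptide. Ciita encodes the coactivator that switches these genes on in dendritic cells, macrophages and B cells, and in many other cells after interferon-gamma. In skin the best-known class II positive cells are epidermal Langerhans cells and dermal dendritic cells and macrophages. The class II genes differ in sequence between MHC haplotypes. Mice of haplotypes b and q, which C57BL/6 and FVB carry, make no functional E alpha chain.

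The promoters of class II genes carry an X box, which RFX and CREB bind, followed by a Y box, which NF-Y binds, and CIITA acts through these factors. The 150 bases before the start of H2-Aa and of H2-Eb1 are shown because both boxes could be found in them. The sequences come from RefSeq on the GRCm38.p6 assembly, chr17:34287824-34287973 on the minus strand for H2-Aa and chr17:34305717-34305866 on the plus strand for H2-Eb1. They are written 5′ to 3′ in the direction of the gene. Capitals mark, from left to right, the core of X1 searched as CTNGCAAC, the core of X2 searched as TGACGTCA (in H2-Aa only), and the core of the Y box searched as CTGATTGG.
H2-Aa: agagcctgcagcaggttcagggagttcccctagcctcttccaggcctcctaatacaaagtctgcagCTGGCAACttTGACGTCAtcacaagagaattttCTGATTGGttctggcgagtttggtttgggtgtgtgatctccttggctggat
H2-Eb1: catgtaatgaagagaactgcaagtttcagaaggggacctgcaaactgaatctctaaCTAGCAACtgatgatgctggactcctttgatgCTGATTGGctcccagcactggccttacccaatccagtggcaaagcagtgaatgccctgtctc
The cores of X1 and Y lay 25 bases apart in H2-Aa and 24 bases apart in H2-Eb1. Both strands of all 32851 promoter windows, each of 250 bases before and 50 bases after a start, were searched. The Y core was found in 4.1% of them, the X1 core in 3.42% and the X2 core in 1.79%, and 59 windows (0.18%) held both the Y and the X1 core. The Y core contains, on the opposite strand, the pentamer CCAAT, which alone was in 37.4% of windows. The 2 windows of H2-DMa held none of these 3 cores, which says only that these letters are not in those windows. H2-Ab1 and Ciita had no window and Cd74 was not examined by itself, so these members are named only. Of 5 other class II genes with a window, H2-Eb2 and H2-Oa held the Y core, and H2-Eb2 and H2-Ob the X1 core. In H2-Eb2 the Y core began 103 bases before the start and the X1 core 12, the reverse of the order in H2-Aa and H2-Eb1.

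Markers were compared with the labelled tissues. The mean of 14 keratinocyte markers lay between 9.10 and 9.72 in the cultures, between 9.36 and 9.78 in 30-day skin and between 10.01 and 10.10 in newborn skin. The mean of 14 dermal and other skin markers lay between 4.82 and 5.15 in the cultures, between 10.36 and 10.69 in 30-day skin and between 10.10 and 10.16 in newborn skin. All values here are log2 values made by RMA, in which 1 unit is a doubling. Values carry no detection call, so it is not known whether a value near or below the array medians of 5.86 to 6.01 reflects any transcript. Differences against such low values are therefore given as differences of RMA values, not as folds of transcript, and the levels of different genes are not compared. Replicate 1 of 30-day skin stood apart: its actin signal was 1.74 higher at the 3′ than at the 5′ end, where replicates 2 to 5 had 0.67 to 0.82, and its middle 18S rRNA control, 1 of 3, was at 8.40, where they had 5.19 to 5.90. This actin gap, a sign of RNA quality, also differed between groups, at 0.21 and 0.35 in mixed-strain cultures, 0.56, 0.74 and 0.61 in FVB cultures, and 0.99 and 1.14 in newborn skin. Its part in the differences below was not tested. Results with arrays left out, among them replicate 1 of 30-day skin, are given for some of the comparisons. Cultures 1 and 2, 30-day replicates 2 and 3, 30-day replicates 4 and 5, and both newborn arrays correlated at 0.993 to 0.996 in pairs over all probe sets, and counting each pair once leaves 8 arrays.

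The first comparison set 30-day skin against newborn skin, as the series asked what separates older from newborn animals. Of the members, H2-Aa, H2-Ab1, H2-Eb1, H2-DMa and Cd74 were higher in 30-day skin. The differences of RMA values ran from 1.38 for H2-DMa to 3.62 for H2-Aa, most of them against newborn values at or below the array median. No array of 30-day skin overlapped one of newborn skin in these 8 probe sets. The share of all probe sets without overlap was not counted, and Ciita 1421211_a_at, which did not pass, had no overlap either. Ciita, whose product switches the others on, did not pass the test. Of the 3 other class II genes measured, given below, 0 passed with 1 probe set each. In a limma fit over all probe sets, 8 of the 10 member probe sets were higher at an adjusted p under 0.05 and 0 were lower. Of all 22626 probe sets 4.75% were higher and 12.1% passed in either direction. The median difference was 2.81 over the member probe sets and 0 over all probe sets. The plot of member values by array shows the levels.

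**Figure D1:**
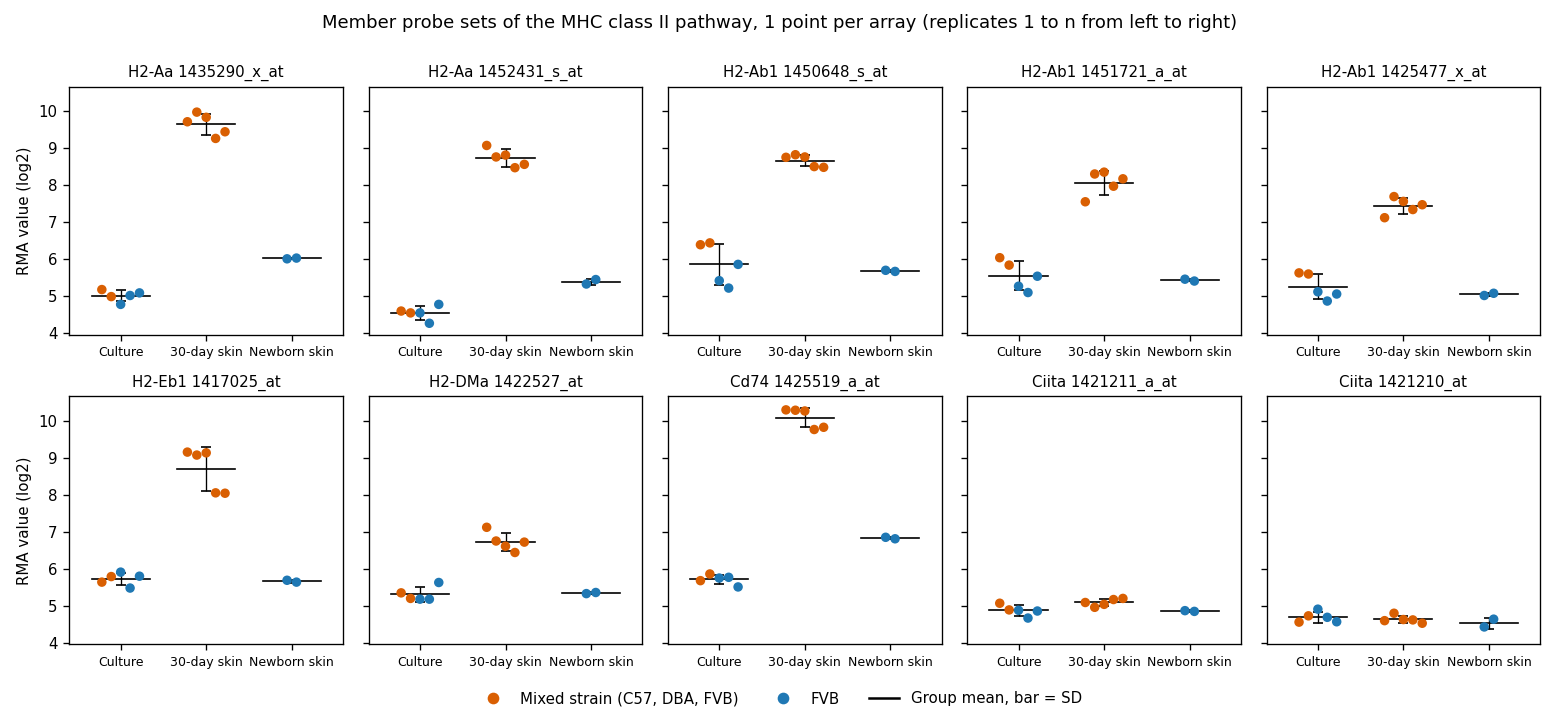
Each panel plots 1 member probe set, with the RMA value (log2) on the vertical axis and the 3 groups on the horizontal axis. Points are arrays, orange for mixed strain and blue for FVB, the line is the group mean and the bar the SD. The 5 arrays of 30-day skin lie above both newborn arrays in every panel but that of Ciita 1421210_at, and the separation is small in the other Ciita panel.

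H2-Aa, the alpha chain of the A molecule, is read by 2 probe sets. Probe set 1435290_x_at had 9.71, 9.97, 9.83, 9.26 and 9.44 in 30-day skin, against 6.01 and 6.03 in newborn skin. The newborn arrays were almost identical, and the 30-day arrays spread by less than 1 unit, far from them. The difference was 3.62 ± 0.17 (SE; limma, adjusted p = 1.37e-08). Probe set 1452431_s_at had 9.07, 8.76, 8.81, 8.47 and 8.56 in 30-day skin, against 5.33 and 5.45 in newborn skin, a difference of 3.34 ± 0.16. Both probe sets thus placed H2-Aa higher in the older, mixed-strain skin, against newborn values close to the array medians or below them. An ending _x_at or _s_at marks probe sets whose probes can bind transcripts of related genes, so part of the signal may belong to other class II genes.

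H2-Ab1, the beta chain that pairs with H2-Aa, is read by 3 probe sets. In 1450648_s_at, the brightest, 30-day skin had 8.75, 8.82, 8.76, 8.50 and 8.48, against 5.70 and 5.67 in newborn skin. The difference was 2.98 ± 0.28 (adjusted p = 1.44e-05). In 1451721_a_at, 30-day skin had 7.55, 8.30, 8.35, 7.97 and 8.17, against 5.46 and 5.41 in newborn skin, a difference of 2.64 ± 0.24. Replicate 1 of 30-day skin, the array that stood apart in its controls, was the lowest of its group here and in 1425477_x_at, and still lay above both newborn arrays. In 1425477_x_at, 30-day skin had 7.12, 7.69, 7.56, 7.34 and 7.47, against 5.02 and 5.08 in newborn skin, a difference of 2.38 ± 0.20. The 3 probe sets agreed in direction, and all newborn values were below the array median.

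H2-Eb1, the beta chain of the E molecule, had 9.15, 9.07, 9.13, 8.05 and 8.04 in 30-day skin, against 5.69 and 5.64 in newborn skin. Replicates 4 and 5 of 30-day skin lay about 1 unit below replicates 1, 2 and 3. The same 2 arrays were the lowest of the group, by smaller steps, for Cd74, for both probe sets of H2-Aa and for 1450648_s_at of H2-Ab1. The difference was 3.02 ± 0.29 (adjusted p = 1.95e-05). H2-DMa, the alpha chain of the peptide exchanger DM, had 7.12, 6.75, 6.61, 6.44 and 6.72 in 30-day skin, against 5.33 and 5.36 in newborn skin. Its difference of 1.38 ± 0.16 (adjusted p = 0.000112) was the smallest of the 8 that passed.

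Cd74, the invariant chain, had 10.29, 10.28, 10.26, 9.76 and 9.82 in 30-day skin, against 6.85 and 6.81 in newborn skin. The newborn arrays lay above their array medians here, and the groups were far apart, with a difference of 3.25 ± 0.16 (adjusted p = 2.2e-08). Across all 12 arrays the level of Cd74, after each gene's own mean was taken away, differed from that of H2-Aa by a root mean square of 0.21, the closest pair among the 15 pairs of members. The 2 genes share the arrays, so this is a description. H2-Ab1 and H2-Eb1 were next at 0.41, and the other pairs ranged from 0.62 to 2.08.

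Ciita, the coactivator, is read by 2 dim probe sets, below the array median on all 12 arrays. Probe set 1421211_a_at had 5.09, 4.96, 5.04, 5.17 and 5.20 in 30-day skin, against 4.87 and 4.85 in newborn skin, a difference of 0.23 ± 0.11 (adjusted p = 0.215). Probe set 1421210_at had 4.60, 4.80, 4.63, 4.62 and 4.53 in 30-day skin, against 4.43 and 4.64 in newborn skin, a difference of 0.10 ± 0.12 (adjusted p = 0.684). The arrays of the second overlapped and those of the first did not. A p that misses the threshold does not show that Ciita was unchanged.

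Leaving out any 1 array kept all 8 calls. Counting each close pair of arrays once, which leaves 1 newborn array whose spread is taken from the other groups, also kept all 8, while the share of all probe sets that passed fell to 1.9%. Strain was also entered as a covariate, which takes the strain difference from the cultures and applies it to skin, an assumption that skin itself cannot check. The differences were then 3.50 and 3.30 for H2-Aa, 2.06, 2.01 and 1.78 for H2-Ab1, 3.04 for H2-Eb1, 1.44 for H2-DMa and 3.15 for Cd74, and all 8 still passed, beside 8.48% of all probe sets.

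H2-Ea, the alpha chain of the E molecule, was not a member but bears on haplotype. Its 3 probe sets behaved differently, and 1422892_s_at is described because its values were seen to spread. It had 9.31, 8.15, 7.86, 6.20 and 6.03 in 30-day skin, against 4.60 and 4.63 in newborn skin. Each 30-day array was higher than both newborn arrays, but the 30-day arrays themselves spanned more than 3 units, in which replicates 4 and 5 were lowest as they were for H2-Eb1. The difference was 2.89 ± 0.64 (adjusted p = 0.00997), and it missed the threshold with strain as a covariate (adjusted p = 0.0668), without newborn replicate 1 (0.091), without newborn replicate 2 (0.103) and with close arrays counted once (0.131), with adjusted p from 0.00168 to 0.131 over its alternatives. In the cultures it lay between 4.48 and 4.78, mixed-strain cultures included.

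Probe set 1422891_at of H2-Ea had 8.47, 7.82, 7.75, 7.48 and 6.97 in 30-day skin, against 6.94 and 6.78 in newborn skin, a difference of 0.84 ± 0.27 (adjusted p = 0.0617). It ranked the 30-day arrays in the same way as the first probe set. Probe set 1426202_at stayed between 3.82 and 4.30 on all 12 arrays. The RefSeq table for the C57BL/6J assembly annotates H2-Ea as a transcribed pseudogene, and the labels do not give the haplotype of any mixed-strain sample.

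**Figure D2:**
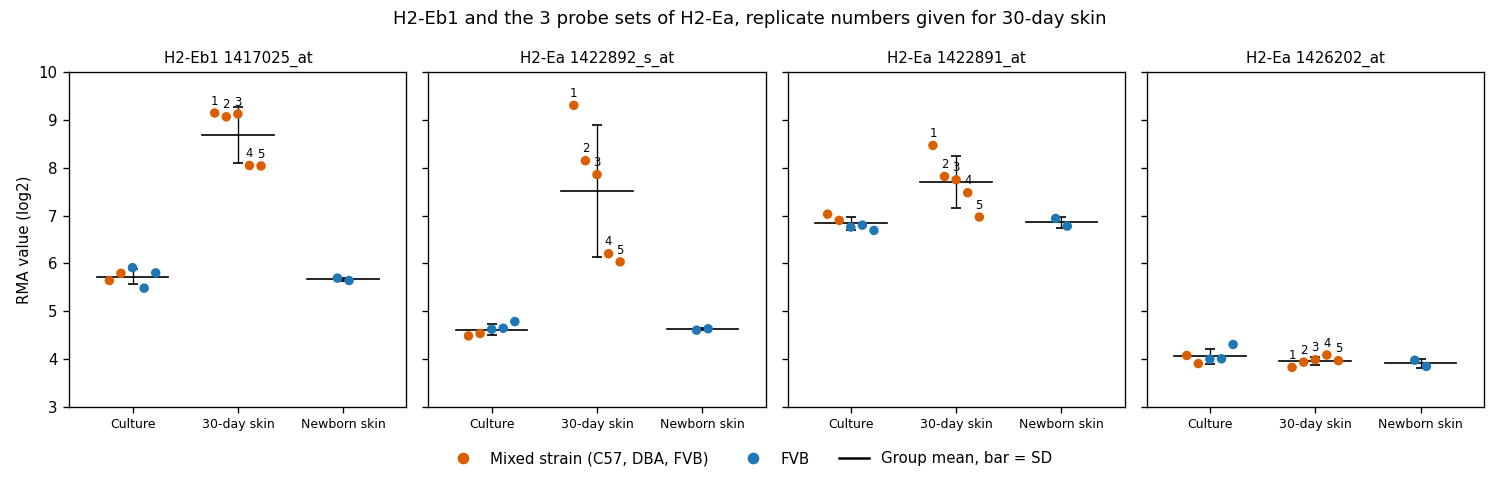
Panels plot H2-Eb1 and the 3 probe sets of H2-Ea, with the RMA value (log2) on the vertical axis and the 3 groups on the horizontal axis. Points are arrays, orange for mixed strain and blue for FVB, with replicate numbers beside the 30-day arrays, lines are means and bars SDs. In H2-Eb1 and in 1422892_s_at replicates 4 and 5 of 30-day skin lie below the other 3, at 8.05 and 8.04 and at 6.20 and 6.03.

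Cells that carry class II molecules were followed by marker lists, which are given beside the members because some of the markers moved with them, and their part in the result was not tested. Of 12393 genes, 5.46% were higher and 8.91% were lower in 30-day than in newborn skin. Of 23 measured Langerhans and dendritic cell markers, 3 were higher and 0 lower, with a median difference of 0.12 over the list against -0.01 over all genes. Cd207, the langerin of Langerhans cells, had 5.42, 5.48, 5.54, 5.67 and 6.05 in 30-day skin, against 4.95 and 4.88 in newborn skin, a difference of 0.72. Its 30-day arrays did not overlap the newborn ones, yet only the highest reached the array medians. Cd209a and Mgl2, both lectins of dermal dendritic cells, were higher by 0.97 and 1.08, while Epcam, also an epithelial gene, did not pass (0.13). The mean over the list lay between 5.71 and 5.84 in 30-day skin and at 5.59 in both newborn arrays, a far smaller step than that of the members. This mean lay below the array medians, and genes such as Itgax, Ccr7 and Ly75 did so on every array. A change in such genes may not show, so the small step says little about the cells.

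Of 14 macrophage and monocyte markers, 4 were higher and 0 lower, with a median difference of 0.24. Lyz2, a lysozyme, was higher by 1.80, Cd163, a scavenger receptor, by 1.28, and C1qb and C1qc, chains of complement C1q, by 0.98 and 0.88. Csf1r, the receptor that macrophages need to survive, did not pass (-0.06). The mean over the list lay between 7.01 and 7.22 in 30-day skin and between 6.66 and 6.68 in newborn skin. Of 10 T cell and pan-leukocyte markers, 3 were higher (Cd52 by 1.04, Cd3g by 0.57 and Cd3d by 0.44) and 0 lower, with a median of 0.22, and Thy1 did not pass (-0.03). Of 8 B cell markers, 0 passed in limma in either direction, 1 had an unadjusted p under 0.05, and the median was 0.14, with Ighm at 0.14. B cell means were 5.46 to 5.69 in 30-day skin and 5.39 to 5.50 in newborn skin, below the array medians. RMA values have no 0, so no marker can be said to be absent.

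Fewer of these markers were called without newborn replicate 1, without newborn replicate 2, or with close arrays counted once. Each of these fits leaves 1 newborn array, and calls over all probe sets fell too. The drop can therefore not be read as particular to the markers. Without replicate 1 of 30-day skin, 7 macrophage markers were higher and 1 lower, beside 15% of all probe sets called, against 12.1% with all arrays. Without replicate 4 of 30-day skin, 1 T cell marker was called, beside 9.68% of all probe sets.

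Interferon-gamma induces Ciita and the class I pathway, and 16 such genes formed a list. In 30-day skin 9 were higher than in newborn skin and 0 lower, with a median difference of 0.56. Tap1, a subunit of the peptide transporter of class I, had 7.19, 6.81, 6.80, 6.88 and 7.20 in 30-day skin, against 5.80 and 5.55 in newborn skin, a difference of 1.30 with no overlap. Iigp1, an interferon-induced GTPase, was higher by 1.20, B2m, the light chain of class I, by 1.10, and Gbp2, a guanylate-binding protein, by 1.03. H2-D1, a class I heavy chain, did not pass (0.62). Fewer were called without newborn replicate 2 or with close arrays counted once. Both fits leave 1 newborn array, and calls over all probe sets fell too. The list mean lay between 7.02 and 7.31 in 30-day skin and between 6.46 and 6.47 in newborn skin. Ifng itself, read after its values were seen, was dim, at means of 4.10 in 30-day skin and 3.88 in newborn skin, and did not pass (0.22).

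The factors and signals that act on class II promoters moved less. Of 17 measured, 1 was higher and 2 lower in 30-day skin, with a median of 0.12. Irf4, a factor of dendritic and B cells, was higher by 0.57, and Nfyb, a subunit of NF-Y, and Jak1, a kinase of the interferon receptors, were lower, with differences of -0.48 and -0.90. Irf4 had an adjusted p of 0.0479 and was not called in most alternatives, among them leaving out newborn replicate 2 or any of 30-day replicates 2 to 5. Nfyc did not pass (-0.05), and Rfx5, which binds the X box and was read after its values were seen, did not either (0.34). Among 13 endosomal genes 2 were higher and 0 lower, with a median of 0.26. Ctsh and Ctsb, cysteine proteases, were higher by 1.21 and 0.79. Both calls were lost without newborn replicate 1 or without newborn replicate 2, which leaves 1 newborn array, and calls over all probe sets fell too. Ctsd did not pass (0.26). Of the 3 other class II genes measured, H2-Ea, H2-DMb2 and H2-Oa, 0 passed in limma with 1 probe set each, at 0.84, 0.07 and 0.27; 1 was called without 30-day replicate 1 or without 30-day replicate 5.

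**Figure D3:**
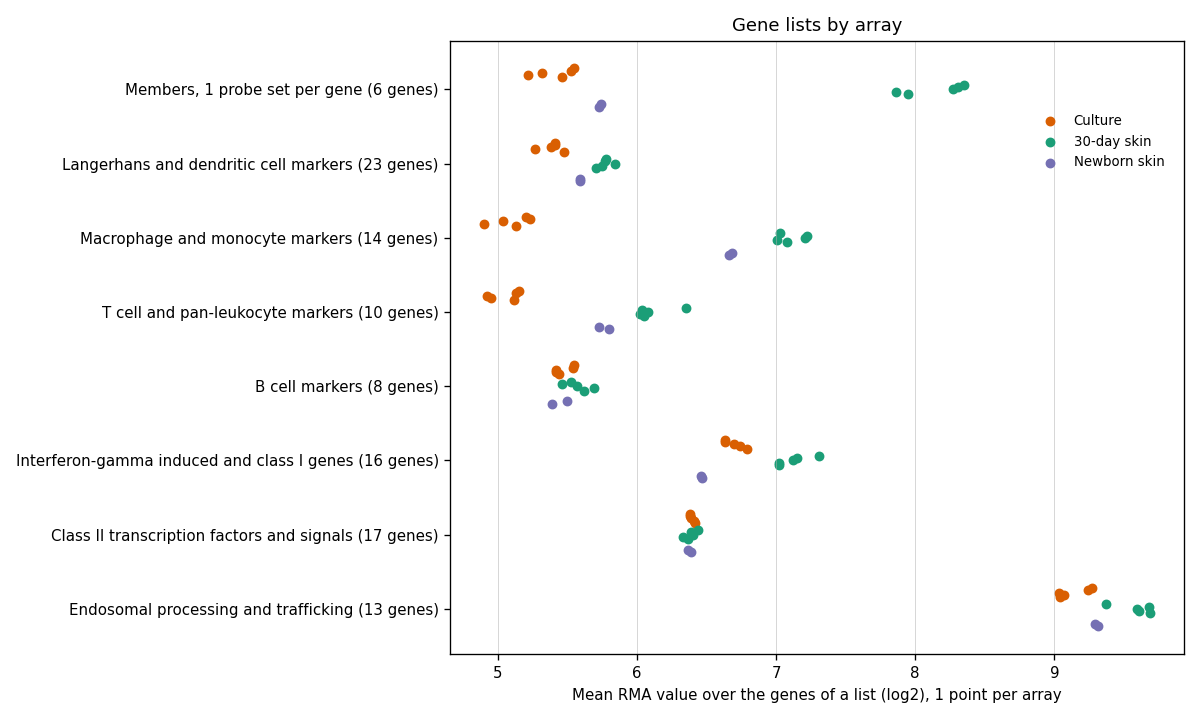
Each row is a gene list and each point an array, at the mean RMA value (log2) over the genes of the list, 1 probe set per gene. Cultures, 30-day skin and newborn skin run down the page in each row. The members reach 7.86 to 8.35 in 30-day skin, against 5.73 to 5.74 in newborn skin, and no other row has so wide a step between the skin groups. In rows below the array medians a change may not show.

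The second comparison set cultured keratinocytes against 30-day skin. Most member probe sets were lower in culture, with the widest gaps in H2-Aa and Cd74, whose culture values all lay below the array median. Of the 10 member probe sets, 9 were lower and 0 higher, beside 18.2% of all probe sets lower and 43.3% called in either direction. The median was -2.65 over the members and 0.03 over all probe sets. Leaving out any 1 culture or 30-day array, replicate 1 of 30-day skin among them, gave 8 to 9 member calls. Of all probe sets 39.8% to 43.2% were then called. These values and those of the first comparison use the same 30-day arrays. Markers of other cells moved with them, and their part in the result was not tested: 12 of 14 macrophage markers, 10 of 23 Langerhans and dendritic markers and all 14 dermal markers were lower in culture than in 30-day skin, beside 21.4% of all genes lower.

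H2-Aa 1435290_x_at had 5.18, 4.99, 4.78, 5.02 and 5.09 in the cultures, and its difference from 30-day skin was -4.63 ± 0.13 (adjusted p = 4.71e-12). Probe set 1452431_s_at had 4.60, 4.55, 4.55, 4.27 and 4.78 in the cultures, and its difference was -4.18 ± 0.12. All 5 cultures were close to each other and below the array median. Cd74 had 5.68, 5.86, 5.75, 5.77 and 5.51 in the cultures, again below the array median in each, and its difference was -4.37 ± 0.12 (adjusted p = 4.71e-12). H2-Eb1 had 5.64, 5.79, 5.91, 5.48 and 5.80 in the cultures, a difference of -2.97 ± 0.22. H2-DMa had 5.35, 5.20, 5.18, 5.18 and 5.63 in the cultures, a difference of -1.42 ± 0.12. No culture overlapped a 30-day array in any of these probe sets, and the share of all probe sets without such overlap was not counted.

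H2-Ab1 differed from the other chains in that the cultures themselves were split. Probe set 1450648_s_at had 6.39 and 6.44 in the mixed-strain cultures, against 5.42, 5.22 and 5.86 in the FVB cultures. Its difference between all cultures and 30-day skin was -2.80 ± 0.21, and those of 1451721_a_at and 1425477_x_at were -2.51 ± 0.18 and -2.18 ± 0.15. Ciita 1421211_a_at had 5.07, 4.89, 4.88, 4.67 and 4.86 in the cultures and was called at -0.22 ± 0.08 with an adjusted p of 0.05 after rounding. Its arrays overlapped those of 30-day skin, and it missed the threshold in 14 of 19 alternatives, with adjusted p from 0.00359 to 0.19. Ciita 1421210_at did not pass (0.06 ± 0.09).

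Restricted to samples with the same strain label, mixed-strain cultures against 30-day skin, 8 member probe sets were lower and 0 higher, beside 16.2% of all probe sets lower. H2-Aa differed by -4.56 and -4.15, Cd74 by -4.31, H2-Eb1 by -2.97 and H2-DMa by -1.46. The 3 probe sets of H2-Ab1 differed by -2.25, -2.13 and -1.82. Neither Ciita probe set passed (-0.11 and 0.01).

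The third comparison set the cultures against newborn skin, the age of the mice they came from. Only H2-Aa and Cd74 were called, both lower in culture, where all their values lay below the array median. Of the 10 member probe sets, 3 were lower and 0 higher, beside 14.7% of all probe sets lower and 32.3% called in either direction. The median was 0.04 over the members and 0.04 over all probe sets. H2-Aa differed by -1.01 ± 0.17 (adjusted p = 0.000351) in 1435290_x_at and by -0.83 ± 0.16 (adjusted p = 0.00103) in 1452431_s_at. Cd74 differed by -1.12 ± 0.16 (adjusted p = 8.86e-05). In these 3 probe sets every culture lay below both newborn arrays, although 1452431_s_at was below the array median in newborn skin too. The share of all probe sets separated in this way was not counted.

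The other 7 member probe sets did not pass, with differences of 0.18, 0.12 and 0.20 for H2-Ab1, 0.06 for H2-Eb1, -0.04 for H2-DMa, and 0.01 and 0.15 for Ciita, and their arrays overlapped. In newborn skin these probe sets lay below the array median, as they did in most cultures. Centring the arrays on epithelial junction genes moved the median of all probe sets by -0.664 and called 16266 of all 22626 probe sets lower in culture. It called 5 of these 7 member probe sets lower, a similar share. The sign turned in 4 of them, at -0.54 and -0.46 for H2-Ab1 1451721_a_at and 1425477_x_at and -0.65 and -0.51 for Ciita. Among FVB samples alone, cultures against newborn skin, again 3 were lower and 0 higher, beside 14.8% of all probe sets lower. H2-Aa differed by -1.06 and -0.85 and Cd74 by -1.16. Marker lists again moved between these groups. The mean of the macrophage list lay between 4.90 and 5.23 in the cultures and between 6.66 and 6.68 in newborn skin, and that of the Langerhans and dendritic list between 5.27 and 5.48 in the cultures and at 5.59 in newborn skin. Of the macrophage markers 10 of 14 were lower in culture and 0 higher, and of the Langerhans and dendritic markers 4 of 23 were lower and 1 higher, beside 18.1% of all genes lower and 17.3% higher. Their part in the lower H2-Aa and Cd74 was not tested. Among these FVB samples the 3 probe sets of H2-Ab1 differed by -0.19, -0.13 and -0.04, and none passed.

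**Figure D4:**
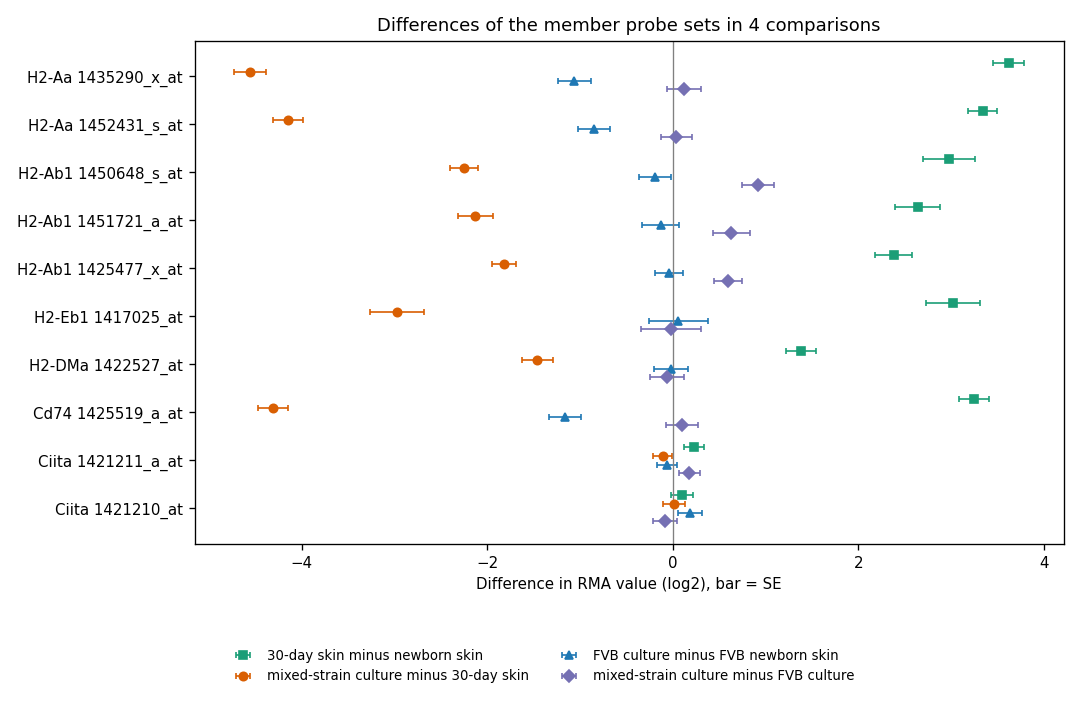
Rows are the 10 member probe sets and the horizontal axis is the difference in RMA value (log2), with bars of 1 SE. Squares are 30-day minus newborn skin, circles mixed-strain culture minus 30-day skin, triangles FVB culture minus FVB newborn skin, and diamonds mixed-strain minus FVB culture. The diamonds farthest to the right are those of H2-Ab1, at 0.92, 0.63 and 0.60.

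Strain was compared within culture, where age and tissue do not differ. The probe sets of H2-Ab1 had higher values in the 2 mixed-strain cultures than in the 3 FVB cultures, and not all of them passed. Of the 10 member probe sets, 2 were higher and 0 lower, beside 3.91% of all probe sets higher and 9.22% called in either direction. The median was 0.11 over the members and 0 over all probe sets. Probe set 1450648_s_at differed by 0.92 ± 0.17 (adjusted p = 0.00433), with the values given above. Probe set 1425477_x_at had 5.63 and 5.60 in mixed-strain cultures, against 5.12, 4.87 and 5.06 in FVB cultures, a difference of 0.60 ± 0.15 (adjusted p = 0.0225). Probe set 1451721_a_at had 6.04 and 5.84 in mixed-strain cultures, against 5.27, 5.10 and 5.54 in FVB cultures, a difference of 0.63 ± 0.20 that missed the threshold (adjusted p = 0.0735). In all 3 the mixed-strain cultures lay above every FVB culture, and the share of all probe sets for which this holds was not counted. The 2 called probe sets end in _s_at and _x_at, so part of their signal may belong to other class II genes. All FVB cultures lay below the array median in all 3, and so did both mixed-strain cultures in 1425477_x_at.

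The call rests on few arrays. Leaving out mixed-strain culture 1 or 2 leaves 1 mixed-strain array, as does counting the 2 once because they correlated at 0.996. The member calls were then lost, and calls over all probe sets fell as well. Over its alternatives 1450648_s_at ranged from 0.71 to 1.10 with adjusted p from 0.000121 to 0.16, and 1425477_x_at from 0.52 to 0.65 with adjusted p from 0.00156 to 0.287. The other chains showed no such split. H2-Aa differed by 0.12 and 0.04, H2-Eb1 by -0.02, H2-DMa by -0.06, Cd74 by 0.10, and Ciita by 0.18 and -0.08, and none passed. Some markers also differed between the mixed-strain and FVB cultures, few of them from immune cells. Of the macrophage markers 1 of 14 was higher in mixed-strain cultures, of the Langerhans and dendritic markers 0 of 23 (in limma, also 0 lower in both lists), and of the dermal and other skin markers 3 of 14 were higher and 1 lower, against 2.99% of all genes higher and 6.25% lower. Of the keratinocyte markers 3 of 14 were lower, Krt1 and Krt10 of differentiating keratinocytes and Trp63, and 0 higher. The actin gap separated the same arrays, at 0.21 and 0.35 in mixed-strain cultures, against 0.56, 0.74 and 0.61 in FVB cultures. The part of these in the H2-Ab1 split was not tested. Ctss, a protease that degrades the invariant chain, was higher in mixed-strain cultures by 1.34 (adjusted p = 0.000389), and was chosen after its values were seen. It had 7.34 and 7.38 in mixed-strain cultures, against 5.87, 5.98 and 6.22 in FVB cultures.

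Because haplotypes differ in sequence, probe sets of 1 gene can differ in how well they match a strain. The gap between 2 probe sets of a gene was therefore compared between strains with an exact permutation test, two-sided, in which strain was permuted within culture and within skin (210 arrangements, smallest possible p 0.0048). In skin strain still coincides with age. The H2-Ab1 probe sets lay below the array median in FVB cultures and newborn skin, where low values can narrow a gap whatever the haplotype, and this was not tested. For H2-Ab1, 1425477_x_at minus 1450648_s_at averaged -0.80 in mixed-strain culture, -0.48 in FVB culture, -1.23 in 30-day skin and -0.63 in newborn skin. The mean strain difference of this gap was -0.46 (exact permutation p = 0.0238, adjusted over 4 pairs 0.0952). For 1451721_a_at minus 1450648_s_at it was -0.32 (exact permutation p = 0.0476, adjusted 0.0952). The gap of the H2-Aa pair differed by -0.18 (exact permutation p = 0.195) and that of the Ciita pair by -0.19 (exact permutation p = 0.143, adjusted 0.19). No pair passed at an adjusted p under 0.05, and 2 had an unadjusted p under it. Both H2-Ab1 gaps passed without culture 1 or without 30-day replicate 1, and 1 pair passed without culture 5.

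The genes whose levels over the 12 arrays were most like a member's, by the root mean square difference after each gene's own mean was removed, included genes of other cell types. They share these arrays and are given as a description. For H2-Aa they were Ccl8 at 0.33, Defb6 at 0.39 and Actn3 at 0.55, and for Cd74 Defb6 at 0.41, Ccl8 at 0.42 and Actn3 at 0.47. Ccl8 encodes a chemokine, Defb6 a defensin of epithelia and muscle, and Actn3 an actinin of fast muscle fibres. For H2-Ab1 they were Neu2 at 0.39, Mb at 0.43 and Myh2 at 0.48, and for H2-Eb1 Retnla at 0.23, Mb at 0.38 and Myh2 at 0.39. Neu2 encodes a cytosolic sialidase, Mb and Myh2 muscle myoglobin and a fast myosin, and Retnla a resistin-like protein of macrophages and fat. For H2-DMa they were Ces1d at 0.18, Clec11a at 0.19 and Scin at 0.22, which encode a carboxylesterase, a secreted lectin-like growth factor and an actin-severing protein. In 30-day against newborn skin the muscle genes Myh2, Actn3 and Mb differed by 3.09, 2.63 and 2.57. They were picked for likeness to members on these same arrays, so a difference like that of the members follows from the choice. What they have to do with the members was not tested. The means of the 3 groups of Ciita spanned only 0.23, and it was left out.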

How the data were processed

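Deposited log2 values from RMA, which corrects background, normalises by quantiles and sums up each probe set, were used, per the submitters' processing notes, with a version not given in the sources used here. All 12 arrays came as 1 table of 22690 probe sets, and 64 controls were left out. With no counts or detection calls, precision depends on how many arrays there are. Groups and strains were taken from the labels. The members and lists were chosen with earlier results of these data known. The test was limma 3.58.1 under R 4.3.3, two-sided, with p-values adjusted by Benjamini-Hochberg over 22626 probe sets. One fit had a mean for each of 3 groups, and another a mean for each of 4 combinations of group and strain for comparisons of or within a strain. Errors are standard errors. A listed gene was represented by its brightest probe set; named were factors and other class II genes that passed, up to 4 of each other list and 1 that did not pass. The fits and the permutation test were tested on simulated data. Alternatives covered normalisation, centring, filters, thresholds, weights, strain, replicate blocks, choice of samples and leaving out each array. Averaging close arrays was added after seeing the data.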

Additional observations from a re-analysis of the deposited data

Results flagged for a closer look

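For 8 member probe sets the difference between mixed-strain and FVB samples was larger in skin, where strain coincides with age, than in culture, where it does not, by an interaction term in limma. This term is the strain-covariate value of 30-day against newborn skin given above, so it is the same result and no further evidence. The difference between these differences was 3.50 and 3.30 for H2-Aa, 2.06, 2.01 and 1.78 for H2-Ab1, 3.04 for H2-Eb1, 1.44 for H2-DMa and 3.15 for Cd74. All 8 passed, with adjusted p from 1.39e-06 for H2-Aa 1435290_x_at to 0.00226 for H2-DMa, beside 8.48% of all probe sets. Every one of these probe sets was higher in 30-day skin in each of 5 arrays, and the share of all probe sets for which this holds was not counted. Neither Ciita probe set passed (0.06 and 0.17). The 10 member and 3 H2-Ea probe sets, each in the cultures and in 30-day skin, gave 26 groups of values. Each was tested for a single sample far from the others, and 0 were found. Such a test cannot flag 2 samples that lie close together, as 30-day replicates 4 and 5 did for H2-Eb1.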

How the results depend on the processing

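The count of 8 member probe sets higher in 30-day than in newborn skin was 8 in every alternative with all probe sets, and 5 of 6 genes with 1 probe set per gene, where the mixed-strain culture comparison with 30-day skin also gave 5. Centring the arrays on epithelial junction genes moved the median of all probe sets by -0.418 for 30-day against newborn skin, -0.247 for culture against 30-day skin, -0.664 for culture against newborn skin and -0.631 for the FVB cultures against newborn skin. Under it, 8 of 10 member probe sets were lower in culture than in newborn skin and 9 among FVB samples, against 3 and 3, beside 16266 and 15270 of all 22626 probe sets, with called differences of -0.54 and -0.46 for H2-Ab1 1451721_a_at and 1425477_x_at and -0.65 and -0.51 for Ciita 1421211_a_at and 1421210_at, and -0.45 for Ciita 1421210_at among FVB samples, all of the opposite sign to the values above. The 2 member probe sets higher in mixed-strain cultures became 1 with that centring, 1 with 1 probe set per gene, 1 at an adjusted p under 0.01, 0 with a 2-fold minimum, 0 with close arrays averaged, and 0 to 2 when 1 array was left out (1 without culture 4). Gaps between probe sets gave 0 to 2 calls when 1 array was left out. Replicate numbers did not pair the samples: deviations of same-numbered arrays correlated between -0.28 and 0.20. With the replicate block, 0 member probe sets passed between strains and 1 between FVB cultures and newborn skin, against 2 and 3. Of all probe sets 5.76% and 21.9% were then called, against 9.22% and 34.4%. The share of all probe sets called, 12.1% for the skin groups, ran from 1.9% with close arrays averaged to 48.2% with epithelial centring, under which 377 were higher and 10539 lower, against 1074 and 1666. For culture against 30-day skin that centring gave 2955 higher and 8050 lower, against 5689 and 4109, and for culture against newborn skin 861 and 16266, against 3972 and 3337. Between strains, 9.22% called became 0.716% with close arrays averaged and 21.9% with array weights. The cause of these shifts was not tested. Values below the array median, as for Ciita on all arrays and for most members in culture, limit what can be read there.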
